A study of Drosophila melanogaster with 11 samples.

Results

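In wild-type Drosophila melanogaster, 54 of 6793 genes on the arrays had transcripts whose ratio to oocytes was low in embryos at 2 to 3 h and above a lower threshold in unfertilized eggs at 4 to 6 h. They were chosen on centred log2 ratios, that is, after the median over genes of each array had been subtracted, so 0 is the array's median ratio to oocytes and not an equal amount of RNA. A gene entered with a value on at least 3 wild-type embryo arrays, an embryo mean of -0.8 or less with every measured embryo array below -0.3, and an unfertilized mean above -0.3 on at least 2 arrays. Genes of the ribosome, proteasome, respiratory chain, chaperonin, translation initiation, cyclin, Cdk, Mcm and Orc families and 5 single genes (smg, aub, qin, krimp and papi) were left out by symbol, which removed CycB, Orc1 and smg from the 57 that met the values. The levels in wild-type embryos and unfertilized eggs therefore chose the genes and are given below as a description, without a test. The smg arrays took no part in the choice. Their ratios are to oocytes as well, so they are not fully independent of it.

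A Drosophila egg is laid with transcripts made in the ovary, and the embryo clears many of them while it starts its own transcription. Egg activation alone starts a maternal clearance activity, which therefore also runs in unfertilized eggs, and the RNA-binding protein Smaug, encoded by smg, is one of its main regulators through the CCR4-NOT deadenylase. A zygotic activity follows that depends on transcription in the embryo, with microRNAs among its agents, and unfertilized eggs lack it. A transcript that is low in embryos and not in unfertilized eggs is a candidate for the zygotic activity, and the comparison of these groups asks that question.

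Total RNA was hybridised to 2-colour cDNA arrays against RNA of wild-type w1118 stage 14 oocytes. The groups were w1118 embryos at 2 to 3 h (4 arrays), SMG material collected over those same hours (4 arrays; the alleles are not named, and replicate 4 has SMGoverDf as its source label), and w1118 unfertilized eggs at 4 to 6 h (3 arrays). Embryos and smg material carried the sample in the red Alexa Fluor dye by indirect labelling, with 60 µg of RNA per channel, while unfertilized eggs carried it in the green dye (Cy3) by direct labelling. Fertilization, age, dye orientation and labelling method thus all differ between the wild-type groups and cannot be told apart. Whether arrays came from separate collections is not stated, so any spread between them may be technical, and within bulk RNA fewer cells of a kind and less RNA per cell cannot be told apart.

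The numerator of the ratios is not stated in the sources used here and was read as sample over oocyte, as the titles order them. The 3 measured eggshell, yolk and follicle cell genes, Yp1 and Yp3 among them, had a median of -2.39 in wild-type embryos. Their median was -1.57 in unfertilized eggs and -1.82 in smg. The 12 measured zygotic blastoderm genes had medians over genes of 1.82 to 2.47 on wild-type embryo arrays, -0.12 to 0.09 on unfertilized arrays and 0.50 to 1.21 on smg arrays. The 5 measured late muscle and neuron genes and the 8 blood cell and fat body genes had wild-type embryo medians of 0.45 and 0.12, and of those tested in smg against oocytes (3 and 6) limma called 0. Wild-type embryo replicate 1 and smg replicate 1 had a value for 48.9% and 51.1% of spots and medians of -4.01 and -4.43 before centring. The other arrays had values for 74.98% to 99.1% of spots and medians between -0.37 and 0.16. Across genes, the ratios of smg replicate 3 ran against those of most other arrays. The correlation r was -0.51 and -0.34 to smg replicates 1 and 2, and 0.76 to smg replicate 4. To wild-type embryo replicates 1 to 4 it was -0.49, -0.27, -0.15 and 0.14. To unfertilized replicates 1 to 3 it was -0.41, -0.26 and -0.16. The marker genes of smg replicate 3 followed the other smg arrays as deposited. The eggshell, yolk and follicle cell median was -1.75 (-1.06, -1.75 and -2.71 on replicates 1, 2 and 4). The zygotic blastoderm median was 1.16 (0.81, 0.50 and 1.21). The markers thus followed the sign as deposited, while the correlations were of both signs. The direction of smg replicate 3 is not settled, and smg results are also given with its ratios reversed in sign. The numbers that end the array titles were read as slide numbers. They divide the embryo and smg arrays into earlier slides (replicates 1 and 2) and later slides (replicates 3 and 4). These sets were inferred from the largest gap between the numbers, and not from a label.

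The 54 embryo means ran from -1.85 to -0.80 with a median of -1.01, which is 3.62-fold to 1.74-fold below the array's median ratio and 2.01-fold at the median. Of 6328 genes with enough embryo arrays, 492 (7.77%) met the embryo part of the rule, and 67 of these had means of -2 or less, of which 0 were among the 54. In unfertilized eggs 57 of the 492 (11.6%) lay above -0.3, 147 lay between -0.8 and -0.3, and 288 at or below -0.8. Over all 6782 genes measured there, 79.4% lay above -0.3. The 54 had unfertilized means between -0.29 and 0.32 with a median of -0.15, and 14 of them were above 0. For 49 of the 54 every unfertilized array was above every embryo array, against 7.21% of all genes, a count that the choice of genes fixes in large part.

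**Figure D1:**
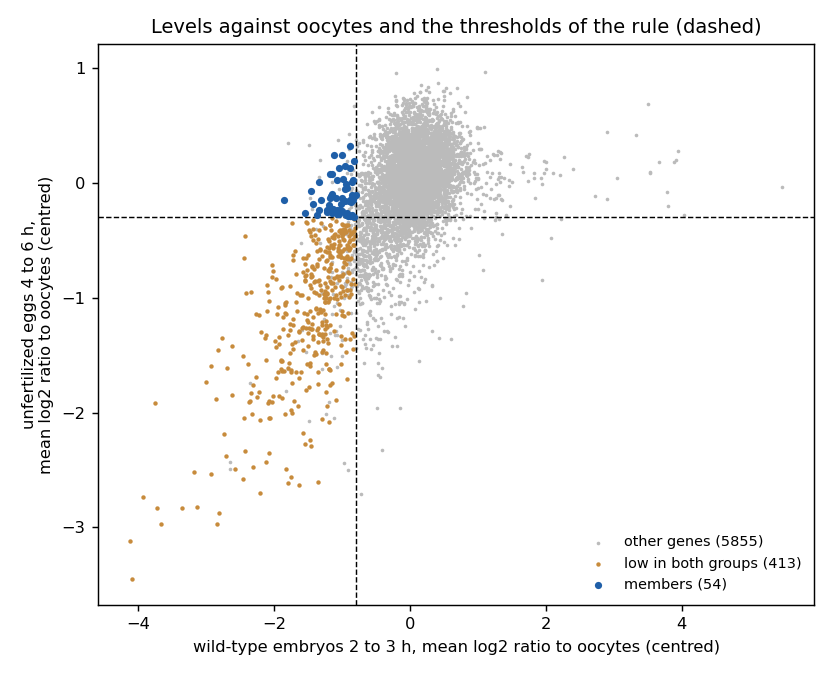
Mean centred log2 ratio to oocytes in unfertilized eggs (vertical) against wild-type embryos (horizontal) for each gene, with dashed lines at the thresholds of -0.8 and -0.3. The 54 members (large points) sit just left of the embryo threshold and reach no lower than -1.85, while the 413 genes low in both groups extend to lower values on both axes.

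The boundary cut through a continuous range. Among genes with a name of their own, the members nearest inside the embryo threshold were Ripalpha (-0.80 ± 0.17, SD, n = 4), EloA (-0.83 ± 0.49) and Zaf1 (-0.84 ± 0.26), and the nearest outside were fwe (-0.797 ± 0.34), Snx1 (-0.79 ± 0.15) and Nbr (-0.78 ± 0.40). At the unfertilized threshold Gclm (-0.29 ± 0.27, SD, n = 3), kipf (-0.29 ± 0.20) and Atg4b (-0.28 ± 0.12) lay just inside. The genes rdog (-0.31 ± 0.08), Der-2 (-0.32 ± 0.23) and nudE (-0.34 ± 0.33) lay just outside it. Of the 3 genes left out by symbol, smg had means of -1.48 in embryos and -0.13 in unfertilized eggs, CycB -0.93 and -0.26, and Orc1 -0.93 and 0.09.

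The lowest embryo mean belonged to CG7386, named after its values were seen. It read -1.93, -2.49, -1.78 and -1.22 on wild-type embryo replicates 1 to 4, and -0.21, 0.03 and -0.28 on unfertilized replicates 1 to 3. On smg replicates 1 to 4 it read -1.68, -1.23, -0.47 and -1.73. As deposited, the smg arrays lay below every unfertilized array, and with smg replicate 3 reversed in sign 3 of the 4 did.

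Among members that act on RNA and translation, Tob belongs to a family whose mammalian proteins bind the CCR4-NOT deadenylase. Its transcript was at -2.45, -0.68, -1.01 and -1.21 in embryos and at -0.55, -0.33 and 0.19 in unfertilized eggs, without overlap. Capr encodes Caprin, an RNA-binding partner of Fmr1 in the early embryo. It was at -1.90, -1.01, -1.57 and -0.40 in embryos and at -0.33, -0.40 and -0.03 in unfertilized eggs, where the highest embryo array met the lowest unfertilized one. The translation activator gene tyf, known from clock neurons, had means of -1.15 ± 0.69 in embryos and -0.26 ± 0.23 in unfertilized eggs. The RNA exosome subunit gene Rrp45 (-0.86 ± 0.37 and -0.28 ± 0.17) and RIOK1 (-0.88 ± 0.52 and 0.32 ± 0.28), whose human and yeast relatives act in small ribosomal subunit maturation, completed these 5. RIOK1 had the highest unfertilized mean of the 54.

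A group of 6 members acts in metabolism, and the sphingolipid pathway is in it with 2 enzymes. lace, a subunit of serine palmitoyltransferase, which makes the first committed step, was at -1.35, -1.45, -1.41 and -0.70 in embryos and at -0.32, -0.03 and -0.35 in unfertilized eggs. ifc, the dihydroceramide desaturase of the same pathway, was at -2.17, -0.67, -0.84 and -0.81 in embryos and at 0.25, 0.04 and 0.45 in unfertilized eggs. The unfertilized arrays of both genes lay above all their embryo arrays, and those of ifc lay above 0. The others were UGP, which makes UDP-glucose (-1.55 ± 0.92 in embryos, -0.26 ± 0.19 in unfertilized eggs), the choline transporter-like gene Ctl2 (-1.13 ± 0.23, -0.23 ± 0.10), the fatty acid breakdown enzyme gene Dci (-0.95 ± 0.65, -0.05 ± 0.15) and Gclm, the modifier subunit of glutathione synthesis (-0.86 ± 0.32, -0.29 ± 0.27). UGP had 4 spots whose embryo means were up to 1.30 apart, the only member with spots more than 1 apart.

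Mitochondrial products were encoded by 4 members. MCU, the pore of the mitochondrial calcium uniporter, was at -1.38, -0.91, -0.85 and -1.04 in embryos and at 0.27, 0.01 and 0.12 in unfertilized eggs, below 0 on each embryo array and above it on each unfertilized array. RIOK1, ifc and CG5850 had the same pattern, which makes 4 of 54, against 0.997% of all genes, a count that the choice of members favours. Without centring only CG5850 of the 4 was above 0 on every unfertilized array, as MCU, ifc and RIOK1 were at -0.10, -0.12 and -0.25 on unfertilized replicate 1. The glutamate carrier gene GC1 was at -0.89 ± 0.38 in embryos and 0.13 ± 0.37 in unfertilized eggs. mtDNA-helicase, which unwinds mitochondrial DNA for its replication, was at -1.08 ± 0.26 and -0.23 ± 0.42, and the mitochondrial transcription factor gene mTerf5 at -0.96 ± 0.49 and -0.16 ± 0.69. The unfertilized arrays of mTerf5 spread from -0.83 to 0.54 and overlapped its embryo arrays, which spread from -1.51 to -0.32.

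Chromatin and transcription had 6 members: Ada2b of the SAGA acetyltransferase complex, the elongation factor gene EloA, the nuclear receptor gene Hr78, kipf, which guides the heterochromatin protein Rhino in the ovary, and the ZAD zinc finger genes Nnk and Zaf1. Their embryo means lay between -1.05 (Ada2b) and -0.83 (EloA), and their unfertilized means between -0.29 (kipf) and 0.19 (EloA). Hr78 was at -0.998, -1.25, -0.80 and -0.67 in embryos and at 0.02, 0.07 and -0.21 in unfertilized eggs, without overlap.

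In signalling and axis formation, tor encodes Torso, the receptor tyrosine kinase that patterns the embryo's ends from maternal mRNA. It was at -1.73, -1.005, -0.91 and -0.94 in embryos and at -0.18, -0.23 and 0.12 in unfertilized eggs. Tao, a kinase upstream of the Hippo pathway, was at -1.01 ± 0.51 and -0.19 ± 0.23. gus, whose product binds Vasa, was at -0.86 ± 0.49 and -0.11 ± 0.16, and spn-F, needed for oocyte axis formation, at -0.85 ± 0.27 and 0.01 ± 0.39.

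Membrane functions had 4 members, of which Vps50, an endosomal recycling gene, had one of the tightest embryo groups at -1.51, -1.26, -1.50 and -1.43, with -0.13, 0.03 and -0.45 in unfertilized eggs. The membrane-curving endophilin gene EndoB (-0.94 ± 0.23, -0.01 ± 0.14), the autophagy protease gene Atg4b (-0.94 ± 0.18, -0.28 ± 0.12) and the anion exchanger gene Ae2 (-1.10 ± 0.22, -0.13 ± 0.31) were the others. The myoblast fusion gene rost (-1.46 ± 0.61, -0.07 ± 0.22), sigmar, Gdap2, osp and Ripalpha made up the 34 members with a name of their own, and 20 members carried only a CG identifier. All 54 were measured on all 4 embryo and all 3 unfertilized arrays, and each spot of each member had an embryo mean below -0.3.

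The 54 members were 0.854% of the 6322 genes with enough arrays, so few were to be found in lists of this size, and the counts say nothing particular of a list. Of 12 measured maternal transcripts known to be degraded, 5 met the embryo part of the rule and 4 of these were also at or below -0.3 in unfertilized eggs (osk, exu, swa and orb), which left tor. Of 17 early signalling genes, pll, spz and Dsor1 were low in both groups and again tor in embryos alone. The list of glycolysis, lipid and amino acid metabolism had 9 of 22 genes low in embryos, all 9 also in unfertilized eggs, among them Gapdh1, Pgk, Eno and Tpi. None of 24 mRNA decay, 28 mitosis, 24 chromatin and repair, 25 ubiquitin, 26 transcription and Mediator, 25 membrane traffic, 20 nuclear pore or 14 cytoskeleton genes was among the 54. In those 8 lists 1, 5, 6, 5, 0, 3, 1 and 1 genes were low in both groups. In smg against oocytes, limma called exu (lower) from the maternal list and 0 genes of the other 10 lists.

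All wild-type arrays took part in the choice of the members, so the rule was run again with 1 array left out. Each round gave another set of genes. When the genes were chosen again without 1 wild-type embryo array, their medians on that array were -0.81 (68 genes, replicate 1), -0.89 (55, replicate 2), -0.91 (57, replicate 3) and -0.50 (93, replicate 4). On these arrays 67.6%, 94.5%, 94.7% and 66.7% of them lay below -0.3, against 39.6%, 31%, 25.8% and 30.9% of all genes. The shares were thus above that of all genes on each embryo array left out. The arrays of a group share the oocyte reference and may be technical repeats. These shares therefore describe how alike the arrays of a group are, and do not test the members. The same limit holds for the unfertilized arrays below.

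In unfertilized eggs the left-out arrays gave medians further below 0 than the members' own. Chosen again without 1 unfertilized array, the genes had medians of -0.32 (63 genes, replicate 1), -0.18 (50, replicate 2) and -0.33 (65, replicate 3) on it. Below -0.3 lay 50.8%, 34% and 52.3% of them, against 25.7%, 23.2% and 29.7% of all genes. On the arrays left out, the genes thus lay somewhat below the array median in unfertilized eggs too, and nearer to 0 than on the left-out embryo arrays.

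**Figure D2:**
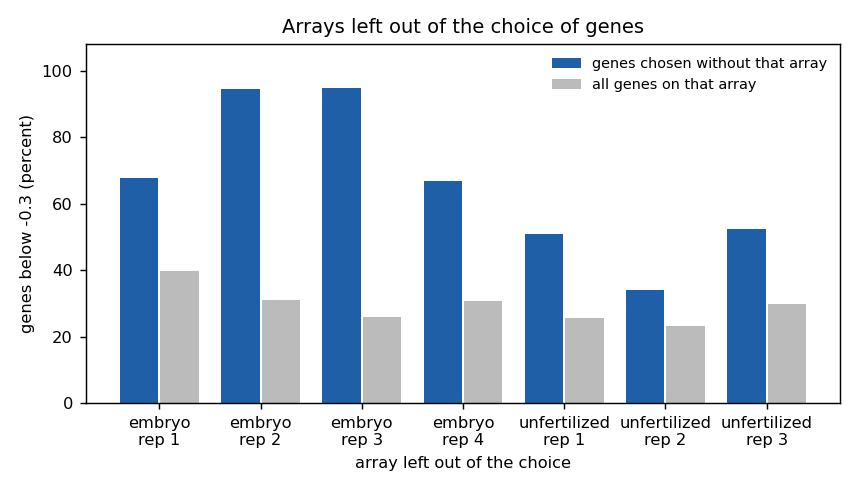
Share of genes below -0.3 (percent, vertical) on each wild-type array when that array was left out of the choice (dark bars), beside all genes on the same array (light bars). The dark bars reach 66.7% to 94.7% on embryo arrays and 34% to 52.3% on unfertilized arrays, and the light bars lie between 23.2% and 39.6%.

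In smg material the members split by array. Their median was -0.93 on smg replicate 1 and -0.60 on replicate 2, and 1.38 on replicate 3 and 0.37 on replicate 4. Below 0 lay 52 of 54 on replicate 1, 48 of 53 on replicate 2, 5 of 54 on replicate 3 and 15 of 54 on replicate 4, where by centring 50% of all genes lie below 0 on each. For 47 members both earlier arrays lay below both later arrays. The median standard deviation between arrays was 1.11 for members in smg, against 0.37 for members in wild-type embryos and 0.72 for all genes in smg.

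**Figure D3:**
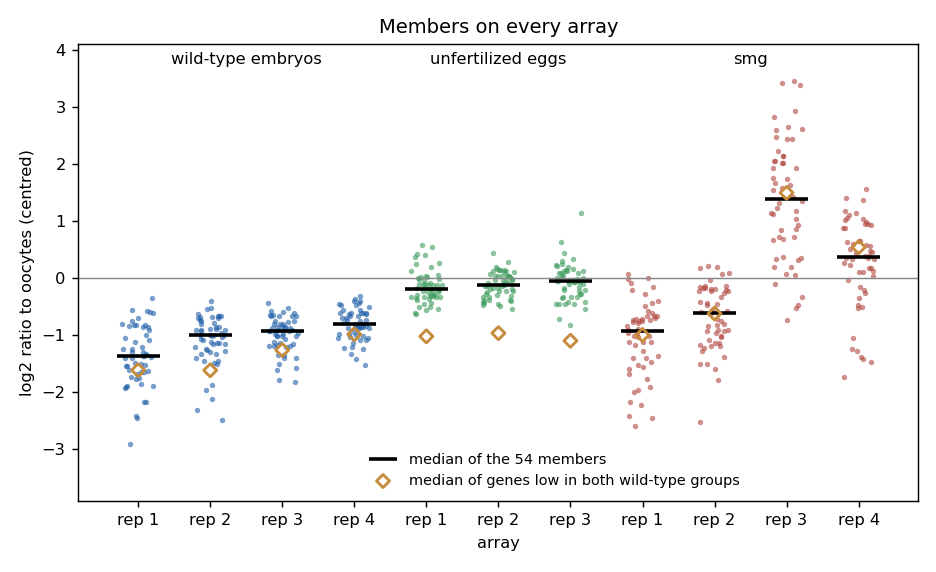
Centred log2 ratio to oocytes of the 54 members (points) on each of the 11 arrays, with their median (bar) and the median of the 413 genes low in both wild-type groups (diamond). The member medians are -1.36 to -0.81 in wild-type embryos, -0.19 to -0.05 in unfertilized eggs, and -0.93, -0.60, 1.38 and 0.37 on smg replicates 1 to 4.

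On smg arrays the members and the genes low in both wild-type groups lay close together. The 413 genes had medians of -0.996, -0.62, 1.49 and 0.54 on smg replicates 1 to 4, and their smg means had a median of 0.08, against -0.04 for the 54 members and 0.13 for all genes. Without smg replicate 3 these medians were -0.37, -0.44 and 0.10. With that array reversed in sign they were -0.70, -0.66 and 0.03, and the smg means of all 54 members were then below 0, where 29 of 54 were with the sign as deposited.

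limma called 0 of the 54 members in smg against oocytes in either direction at an adjusted p of 0.05, with the smallest adjusted p at 0.205, and over all 6112 genes 0.0654% were called lower and 0.0164% higher. At an unadjusted p under 0.05, 7 members (13.0%) were lower and 2 (3.70%) higher, where 2.7% and 7.69% of all genes were. The oocyte reference is common to the arrays that chose the members, so these shares are not fully independent of the choice. The fit also shared its spread between wild-type embryo and smg arrays, where the members' median SD was 0.37 and 1.11. The p-values therefore do not measure the spread of the smg arrays alone, and can be too small for members that spread widely there. The 7 were CG7386, mTerf5, mtDNA-helicase, CG5568, CG3632, Zaf1 and Nnk, and the 2 were Tao and EndoB. With smg replicate 3 reversed in sign, 23 members were lower and 0 higher at that level (6.69% and 1.36% of all genes), and 0 members passed after adjustment. Without smg replicate 3, 4 members were called lower, where 1.36% of the 3672 genes tested were. They were CG5568 (-2.12, SE 0.34, limma adjusted p = 0.00304), CG3632 (-1.88, adjusted p = 0.00795), CG7386 (-1.55, adjusted p = 0.0182) and mTerf5 (-1.32, adjusted p = 0.0481).

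The embryo part of the rule, applied to the smg arrays, was met by 3 members, CG7386, mtDNA-helicase and mTerf5, which is 5.56% of 54 against 0.753% of all genes and 3.87% of the genes low in both wild-type groups. The mitochondrial helicase transcript was at -0.73, -1.19, -0.52 and -1.38 on smg replicates 1 to 4 (limma adjusted p = 0.257). mTerf5 was at -0.98, -1.50, -0.73 and -1.47 (adjusted p = 0.205), and all 4 arrays of each gene lay below 0. CG7386 had a smg mean of -1.28 ± 0.58 (adjusted p = 0.205), which was called lower with the slide set as a blocking factor (adjusted p = 0.0459, with 0.344% of all genes called lower). Hr78 and Nnk were also below 0 on every smg array, which makes 5 of 54, against 7.82% of all genes, and 9 of 54 against 4.86% with smg replicate 3 reversed in sign. With that reversal the rule was again met by 3 members, but by CG3632, CG5568 and Ctl2, so which members meet it depends on the direction of that array.

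At the other end stood Tao, at -0.16, 0.20, 3.38 and 1.37 on smg replicates 1 to 4, a mean of 1.20 ± 1.597 (limma adjusted p = 0.432). Capr was at -0.43, -0.22, 3.45 and 0.87 (mean 0.92 ± 1.78), and EndoB at -0.20, 0.20, 2.05 and 1.02 (0.77 ± 0.998, adjusted p = 0.465). The high means of these genes rested on the later slides, and 0 of the 54 members lay above 0 on all smg arrays, against 9.36% of all genes. With smg replicate 3 reversed in sign, the means were -0.49 for Tao, -0.81 for Capr and -0.26 for EndoB. tor was at -1.59, -1.18, 2.14 and 0.33, and lace at -0.66, -0.19, 2.05 and 1.17, with the same order of slide sets.

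By role, all 6 chromatin and transcription members had smg means below 0, from -0.80 (Zaf1) to -0.14 (Ada2b), as did 5 of 6 in metabolism, 2 of 4 in mitochondria, 2 of 5 in RNA and translation, 2 of 4 in signalling and axis, 2 of 4 in membranes and 1 of the 5 others. Of all genes 38.2% had smg means below 0. With smg replicate 3 reversed in sign all members of every role were below 0, and 48.0% of all genes, so the roles then no longer differed in this count. These groups were drawn up after the values were seen and describe the members alone.

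**Figure D4:**
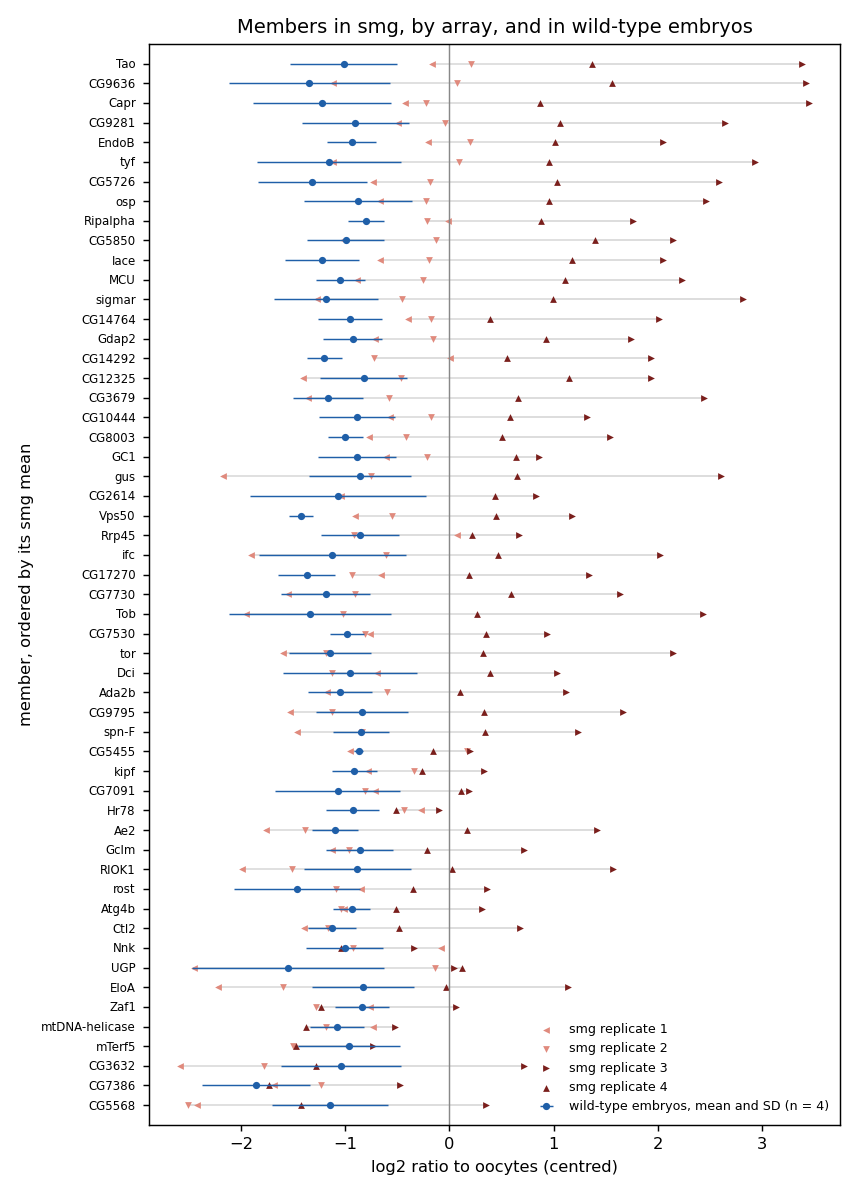
Centred log2 ratio to oocytes (horizontal) of each member on the 4 smg arrays (triangles, light for the earlier slides and dark for the later), and the mean and SD in wild-type embryos (circles with bars, n = 4), ordered by the smg mean. Light triangles lie mostly left of 0 and dark ones mostly right of it, while all 4 smg arrays of CG7386, mTerf5, mtDNA-helicase, Nnk and Hr78 lie left of 0.

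The smg levels lay above the wild-type embryo levels for 51 of 54 members, with a median difference of 1.06, where the median of all 5791 genes was 0.17 and 63.9% were positive. The wild-type arrays in this difference chose the members for low values, so the direction is favoured by the choice and supports nothing. Within the earlier slides the median difference was 0.51 (41 of 53 members above 0, against 60.1% of all genes), and within the later slides 1.71 (53 of 54, against 55.9%). With smg replicate 3 reversed in sign the median over all slides was 0.41, with 46 of 54 members above 0 against 55.2% of all genes. limma called 0 of 54 members higher in smg at an adjusted p of 0.05 (smallest adjusted p 0.194), and 23 at an unadjusted p under 0.05, where 0.19% and 8.65% of all genes were called. It called 0 members lower, where 0.0863% of all genes were. For 11 members all 4 smg arrays lay above all 4 embryo arrays, against 5.66% of all genes, and for 2 members against 2.30% with smg replicate 3 reversed in sign.

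The difference was called for 7 members with the slide set as a blocking factor, all higher in smg: CG9636 (2.33, SE 0.52), Tao (2.22, SE 0.52), Capr (2.14, SE 0.56), CG5726 (1.99, SE 0.51), lace (1.82, SE 0.41), EndoB (1.70, SE 0.39) and CG9281 (1.70, SE 0.44), with limma adjusted p between 0.0211 and 0.0466, where 3.7% of all genes were called higher. Without smg replicate 1 it was called for 11 members (3.89% of the 5482 genes tested). Both counts include smg replicate 3. The wild-type arrays in the difference chose the members for low values, so these counts too support nothing. As deposited, the members with smg means below their wild-type embryo means were CG5568 (-0.36), mTerf5 (-0.21) and CG3632 (-0.19).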

How the data were processed

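Per the series' design text, the authors quantified 16-bit images with QuantArray 3 and made ratios in GeneTraffic Duo 3.2 with rank-invariant LOWESS within each array. The authors deposited these as normalized log2 ratios, 1 for each of 27648 spots on 11 arrays. Base 2 was inferred from the lowest value, -11.92. Neither background correction nor spot filtering is described in the sources used here, and with no channel intensities the number of arrays limits the precision.

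Spots with a single gene in the platform's probe table (15116) were averaged to 6793 genes, of which 6692 were named through the reference annotation (Release 6 plus ISO1 MT, for names alone), and each array was centred on its median. Genes with values on at least 3 smg arrays (and 3 wild-type embryo arrays for the difference) were tested with limma 3.58.1 (R 4.3.3). Each contrast had its own fit (lmFit, then eBayes) of the 8 arrays at 2 to 3 h. The residual spread of a gene was shared by its wild-type embryo and smg arrays. Tests were two-sided, with Benjamini-Hochberg adjustment over all genes tested in that contrast and a threshold of 0.05. The fit was tried on simulated data with the spread of the wild-type embryo arrays on every array. That spread had a median SD of 0.41 over all genes, against 0.72 in smg, so the trial says little of the smg arrays. All members with a symbol other than a CG or CR identifier could be named, as 40 or fewer had one. Members, gene lists and thresholds were chosen with earlier results of these data known. Centring, spot averaging, slide sets, array sign, left-out arrays and the rule's thresholds were varied.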

Additional observations from a re-analysis of the deposited data

Results flagged for a closer look

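Among 109 groups of 4 values checked, 54 members in wild-type embryos and in smg and their medians, 7 had 1 array far from the other 3. Chance flags about 1 in 20 groups. On wild-type embryo replicate 1, which also had the fewest measured spots, ifc (-2.17), tyf (-2.17), tor (-1.73) and RIOK1 (-1.65) lay far below the other embryo arrays. lace on wild-type embryo replicate 4 (-0.70) lay far above the others and Ripalpha on replicate 3 (-1.06) far below. UGP on smg replicate 1 (-2.45) lay far below the other smg arrays, which were between -0.13 and 0.12. Wild-type embryo replicate 1 and smg replicate 1 also spread widest over all genes, with median absolute deviations of 0.72 and 0.74. The other embryo arrays had 0.27 to 0.42 and the other smg arrays 0.43 to 0.59. The flagged values were not scaled for that spread.

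For 4 members every embryo array lay below 0, the array's median ratio, and every unfertilized array above it, a difference that was not tested because it chose the genes: ifc (embryos minus unfertilized eggs -1.37), CG5850 (-1.24), RIOK1 (-1.20) and MCU (-1.18). Of all genes 0.997% showed this pattern. Without centring it held for CG5850 alone of the 4, since unfertilized replicate 1 was then below 0 for the others. Dye orientation and labelling method also differ between these groups, and their part was not tested.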

How the results depend on the processing

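The number of members depended on the rule and the scale: it was 142 with values as deposited, 26 with quantile normalization between arrays, 28 and 92 with embryo thresholds of -1.0 and -0.6, and 14 and 110 with unfertilized thresholds of 0 and -0.5. Of the 54, 41 were among the 142 and 35 among the 61 found with centring on genes measured on all arrays. With 1 array left out it ran from 50 to 93, and 93 was without wild-type embryo replicate 4. Without wild-type embryo replicate 1, the array with the fewest measured spots, it was 68, and 42 of the 54 were among them. Without unfertilized replicate 3 it was 65, with 44 of the 54. Members that met the embryo rule in smg were counted among the members found in each setting. They numbered 9 of 142 as deposited and 9 of 61 with centring on genes measured on all arrays. When replicate 1 was left out of both embryos and smg they numbered 5 of 68, and with an unfertilized threshold of 0 they numbered 0 of 14. With 1 array left out they ran from 1 of 63 (without unfertilized replicate 1) to 8 of 54 (without smg replicate 3). The share of all genes was not computed for these settings. Members called lower in smg against oocytes numbered 1 with the slide sets as a block, and 0 to 4 with 1 array left out (4 without smg replicate 3). Members called higher ran from 0 to 0. Members called higher in smg than in wild-type embryos numbered 7 with the block. With 1 array left out they numbered 0 to 11 (11 without smg replicate 1). Arrays scaled by their median absolute deviation gave 46 members, with 34 of the 54 among them. Of these 46, 3 were called higher in smg than in wild-type embryos.

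Over all genes, the 4 lower and 1 higher in smg became 0 and 0 as deposited, with the scaled arrays and with smg replicate 3 reversed in sign, 15 and 0 with centring on genes measured on all arrays, 16 lower with quantile normalization, 1 and 0 when replicate 1 was left out of both, 0 higher among genes measured on every array, and 21 and 12 with the block. With 1 array left out they ran from 1 to 50 lower and 0 to 4 higher, with 50 and 4 without smg replicate 3. The median smg level of the members was -1.10 as deposited, -0.83 on the earlier and 0.81 on the later slides alone (added after the data were seen), and -0.44 to 0.39 with 1 array left out, and the median of smg minus wild-type embryos 0.59 to 1.55. The median on left-out unfertilized arrays was 0.0771 as deposited, against -0.32 centred. The 0.0771 was that of unfertilized replicate 2, where all genes had a median of 0.121 before centring. EndoB turned to -0.35 as deposited, where the uncentred median of smg replicate 1 (-4.43) enters its mean as it does for other genes. Tao and EndoB turned to -0.49 and -0.26 when smg replicate 3 was reversed in sign. Causes of the other differences between settings were not tested. No paired analysis was possible because the replicate numbers follow the order of deposition, and no label ties a single array of one group to one of another. The slide numbers give only inferred sets of slides, which were fitted as the block above.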

Other observations

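The rule's thresholds were also applied to spots outside the platform's probe table, as a description without a test. Of 12430 such spots 7047 had enough values, and 77 of these (1.09%) met the rule's thresholds spot by spot, while 135 of 12720 measured spots with a single gene (1.06%) did. They have no gene name here.

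In the order of genes in the reference annotation, counting the genes measured here alone, 2 pairs of members stood next to each other: Ada2b with CG9636, and CG3632 with CG3679. These members were named after their values were seen. In wild-type embryos Ada2b was at -1.05 ± 0.31 (SD, n = 4) and CG9636 at -1.34 ± 0.77, and CG3632 was at -1.04 ± 0.57 and CG3679 at -1.17 ± 0.34. In smg the means of the second pair were -1.23 ± 1.41 for CG3632 and 0.29 ± 1.66 for CG3679, with a spread between arrays larger than either mean, and -1.59 and -0.93 with smg replicate 3 reversed in sign.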
